A study of Mus musculus with 16 samples.

Results

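The 10 Notch pathway genes of the vasculature described here were the ligand genes *Dll4*, *Jag1* and *Jag2*, the receptor genes *Notch1*, *Notch3* and *Notch4*, and the target genes *Hey1*, *Hey2*, *Heyl* and *Hes1*. They were chosen by name as ligands, receptors and targets of the pathway, with earlier results of these data known. They were matched by symbol in a table of 55487 genes from mouse cortex, in which each was found once. Notch signalling passes between touching cells. A ligand on one cell pulls on a receptor on its neighbour, the receptor is cleaved by proteases, and its intracellular domain enters the nucleus, where it joins the DNA-binding protein RBPJ and switches on repressors of the HES and HEY families. In blood vessels, DLL4 acting on NOTCH1 restrains sprouting and maintains arterial identity, NOTCH4 is found mainly in endothelial cells, and NOTCH3 is the receptor of pericytes and smooth muscle cells, which receive JAG1 from the endothelium.

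The study asked whether the time of day (TOD) at which mice meet an inflammatory stimulus changes the response of the brain. Male wild-type C57Bl6 mice aged 2 months received i.p. lipopolysaccharide (LPS, a component of the bacterial outer membrane) at 2 mg/kg, or phosphate-buffered saline (PBS), on 2 consecutive days, and cortex was taken a day after the last injection, at the same TOD. Injections were given at ZT1 or at ZT13, that is 1 or 13 hours after lights-on. Each time had 3 mice given PBS and 5 given LPS, 16 mice in all, and each library held 20251840 to 29112758 reads on genes. Because TOD of injection and TOD of collection were the same in every group, the contributions of the injection time and the collection time cannot be told apart.

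Levels are given in CPM, the reads on a gene per 1000000 reads on all genes of a library. Differences are on the scale of log2(CPM + 0.5), on which the change of low genes is understated, and a gene was called when its adjusted p was under 0.05 over the 18859 genes that reached 1 CPM in at least 3 libraries. All 10 members passed that filter. *Dll4* had the least depth, with 32 to 94 reads per library, against 1731 to 3212 for *Notch1*.

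The treatment of each mouse was taken from the sample title. A separate treatment field contradicted the title in 12 of the 16 libraries, and with treatment read from that field 0 of 18859 genes and 0 members were called by limma for LPS against PBS at either time. *Gfap*, an intermediate filament gene of reactive astrocytes, was between 111 and 123 CPM where the title said PBS (6 libraries) and between 572 and 1134 CPM where it said LPS (10 libraries). *Lcn2*, which encodes an iron-scavenging acute-phase protein, lay at 0.0421 to 0.197 CPM in the former and at 107 to 418 CPM in the latter. By both genes the titles separated treated from control mice without overlap.

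Cortex was also checked for tissue carried over from the ventricles. The summed level of 7 choroid plexus and ependyma genes differed between mice of the same group, from 17.1 to 907 CPM in PBS at ZT1, 21.9 to 848 CPM in LPS at ZT1, 18.5 to 952 CPM in PBS at ZT13 and 41.8 to 580 CPM in LPS at ZT13. *Ttr*, the transthyretin gene, was the most abundant of them, and none was at 0 in every library. All 4 groups held libraries with little and with much of this signal. Its part in the results was not tested.

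Per kilobase of exon, the members spanned an order of levels that was much the same in the 4 groups. In PBS at ZT1, *Hey1* was the most abundant with 12.2 CPM per kb, then *Jag2* with 9.34, *Notch1* with 6.35, *Notch3* with 3.31, *Hes1* with 3.06 and *Jag1* with 1.38. *Notch4*, *Hey2*, *Dll4* and *Heyl* came last with 0.939, 0.922, 0.919 and 0.855 CPM per kb, and their libraries overlapped from each neighbour to the next, as did those of *Notch3* and *Hes1*. In LPS at ZT13, *Notch4* had moved up to 3.11 CPM per kb, overlapping *Hes1* at 3.33, while *Dll4* was the lowest of the 10 at 0.766. The lowest group mean of any member was that of *Dll4* in PBS at ZT13, 0.371 CPM per kb, where no library overlapped the next gene, *Heyl*.

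**Figure D1:**
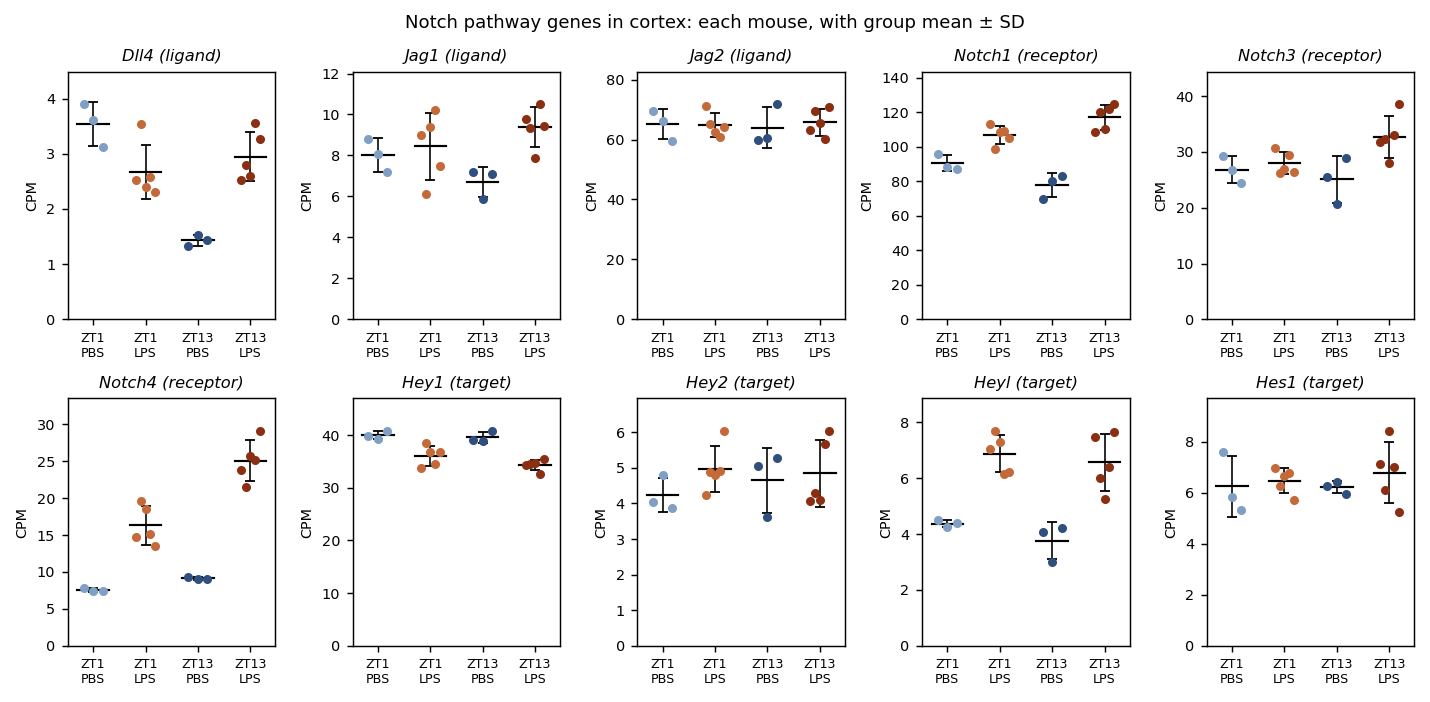
Level of each of the 10 genes in CPM (y axis, from 0) in every mouse of the 4 groups (x axis), with the group mean as a horizontal line and error bars of 1 SD (n = 3 for PBS, n = 5 for LPS). *Notch4* was higher in every LPS-treated mouse than in any PBS-treated mouse, and *Dll4* was lowest in the PBS-treated mice at ZT13, at 1.33 to 1.53 CPM.

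To compare LPS with PBS, each time was fitted on its own, and the 2 comparisons share no mice. At ZT1, 3 of the 10 members rose after LPS, *Notch4*, *Heyl* and *Notch1*, beside 2089 of 18859 genes (11.1%), and 0 of 10 fell, beside 972 genes (5.15%). At ZT13, 6 of 10 rose, *Notch4*, *Dll4*, *Heyl*, *Notch1*, *Jag1* and *Notch3*, beside 3629 genes (19.2%), and 1 fell, *Hey1*, beside 1772 genes (9.4%). The median difference of the 10 members was 0.06 at ZT1 and 0.42 at ZT13, where the medians over all genes tested were 0.04 and 0.05. At an unadjusted p under 0.05 limma gave 5 members and 5716 genes at ZT1, and 7 members and 7222 genes at ZT13. Without any one of the PBS-treated mice at ZT1 the number of genes called at that time dropped from 3061 to 1763, 1869 and 1782 (replicates 1, 2 and 3 left out). Without LPS replicate 2 at ZT1 the number of members called there was 5, beside 3329 of 18812 genes. Of the genes called, 68.2% were higher after LPS at ZT1 and 67.2% at ZT13, and with median-of-ratios scaling, which sets libraries level by their typical gene, these shares were 54.4% and 50.1%, with 3 and 7 members called as before. In bulk tissue a change in the number of cells of a type and a change in RNA per cell cannot be told apart, and this holds for every difference given here.

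Among the ligands, *Dll4* (ENSMUSG00000027314, chr2:119325784-119335962, plus strand, GRCm38) encodes the endothelial ligand of arteries and sprouting tip cells. At ZT1 it read 3.90, 3.60 and 3.12 CPM in the PBS-treated mice and 2.52, 3.54, 2.40, 2.58 and 2.31 CPM in the LPS-treated mice. At ZT13 it read 1.33, 1.53 and 1.43 CPM with PBS and 2.52, 2.79, 2.60, 3.56 and 3.27 CPM with LPS. The PBS-treated mice at ZT13 thus formed the low group, below every other mouse of the study, while at ZT1 the LPS-treated mice lay below the PBS-treated mice except for replicate 2, which lay among them. The mean was 3.54 ± 0.39 CPM (SD, n = 3) and 2.67 ± 0.50 CPM (n = 5) at ZT1, and 1.43 ± 0.099 CPM (n = 3) and 2.95 ± 0.45 CPM (n = 5) at ZT13. At ZT13 the rise was 0.83 on the log2 scale (SE 0.14, 95% interval 0.53 to 1.13, adjusted p = 0.000477), a ratio of mean CPM of 2.06. At ZT1 the difference was -0.36 (SE 0.14, 95% interval -0.68 to -0.04) and was not called, with an adjusted p of 0.120. That value became -0.45 with adjusted p = 0.0318 without LPS replicate 2 at ZT1, within a range of 0.0318 to 0.329 over the alternatives. The ZT1 difference was called in 2 of 15 alternatives.

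*Jag1* (ENSMUSG00000027276, chr2:137081456-137116644, minus strand) encodes the ligand through which endothelial and mural cells signal to smooth muscle. It read 7.17, 5.87 and 7.08 CPM in PBS and 9.79, 9.33, 7.88, 10.5 and 9.45 CPM in LPS at ZT13, with no overlap. The rise was 0.46 (SE 0.10, adjusted p = 0.00445). At ZT1 the LPS-treated mice ranged from 6.13 to 10.2 CPM around the PBS-treated mice at 7.20 to 8.83 CPM, and the difference was 0.05 (95% interval -0.27 to 0.38). *Jag2* (ENSMUSG00000002799, chr12:112907819-112929776, minus strand), a second Jagged ligand, lay between 59.6 and 71.8 CPM in all 16 mice. Its difference was -0.01 at ZT1 (95% interval -0.14 to 0.13) and 0.04 at ZT13 (95% interval -0.10 to 0.19), and the groups overlapped at both times.

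Of the receptors, *Notch4* (ENSMUSG00000015468, chr17:34564268-34588503, plus strand), the endothelial receptor, had the largest LPS difference of the 10 members at each time. At ZT1 it read 7.89, 7.46 and 7.37 CPM in PBS and 14.8, 19.7, 18.6, 15.1 and 13.5 CPM in LPS. At ZT13 it read 9.38, 9.02 and 9.05 CPM in PBS and 23.9, 21.6, 25.8, 25.1 and 29.2 CPM in LPS. Every LPS-treated mouse was above every PBS-treated mouse, and the LPS-treated mice at ZT13 were all above those at ZT1. The rise was 1.05 at ZT1 (SE 0.12, 95% interval 0.79 to 1.30, adjusted p = 0.000144) and 1.40 at ZT13 (SE 0.08, 95% interval 1.22 to 1.58, adjusted p = 2.85e-08), ratios of mean CPM of 2.15 and 2.74.

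*Notch1* (ENSMUSG00000026923, chr2:26457903-26516663, minus strand) encodes the receptor for DLL4 in endothelium and is also used by neural progenitors and glia. It read 95.6, 88.2 and 87.3 CPM in PBS and 113, 98.7, 108, 109 and 105 CPM in LPS at ZT1. It read 69.9, 80.1 and 83.1 CPM in PBS and 109, 120, 110, 122 and 125 CPM in LPS at ZT13. The groups did not overlap at either time, with LPS the higher. The rise was 0.24 at ZT1 (SE 0.05, adjusted p = 0.00856) and 0.59 at ZT13 (SE 0.06, adjusted p = 5.64e-06). The call at ZT1 was lost without PBS replicate 3 at ZT1 (0.22, adjusted p = 0.0523, range over the alternatives 0.00100 to 0.0523).

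*Notch3* (ENSMUSG00000038146, chr17:32120820-32166852, minus strand), the receptor of mural cells, read 25.6, 20.7 and 29.0 CPM in PBS and 31.8, 32.3, 28.0, 33.0 and 38.6 CPM in LPS at ZT13. The groups overlapped, since 1 LPS-treated mouse lay below the highest PBS-treated mouse. The rise was 0.38 (SE 0.10, adjusted p = 0.0138). It was called in 12 of 15 alternatives. The call was lost, among others, without PBS replicate 2 at ZT13, the lowest mouse (0.25, adjusted p = 0.0903), and in the fit of every gene above 0 reads (adjusted p = 0.132, range over the alternatives 0.00533 to 0.132). At ZT1 the difference was 0.06 (95% interval -0.10 to 0.23), with PBS at 24.4 to 29.2 CPM and LPS at 26.3 to 30.7 CPM.

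The targets did not move together. *Heyl* (ENSMUSG00000032744, chr4:123233556-123249875, plus strand), a repressor gene expressed in mural cells, read 4.49, 4.25 and 4.38 CPM in PBS and 7.04, 7.70, 7.28, 6.16 and 6.21 CPM in LPS at ZT1. At ZT13 it read 4.06, 3.01 and 4.21 CPM in PBS and 7.48, 6.02, 5.24, 6.40 and 7.66 CPM in LPS. All LPS-treated mice were above all PBS-treated mice at both times. The rise was 0.59 at ZT1 (SE 0.10, adjusted p = 0.00248) and 0.73 at ZT13 (SE 0.14, adjusted p = 0.00129).

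*Hey1* (ENSMUSG00000040289, chr3:8663359-8667256, minus strand), a repressor gene of arterial endothelium that is also expressed in other brain cells, had tightly grouped values. It read 39.1, 38.9 and 40.8 CPM in PBS and 34.3, 34.5, 34.7, 32.7 and 35.4 CPM in LPS at ZT13. Every LPS-treated mouse was below every PBS-treated mouse, and the change was small. It fell by 0.20 (SE 0.05, adjusted p = 0.00427). At ZT1 the groups did not overlap either, with PBS at 39.3 to 40.8 CPM and LPS at 33.8 to 38.6 CPM. There the difference was -0.15 (SE 0.06, adjusted p = 0.0948) and was not called. The ZT1 difference was called in 3 of 15 alternatives, among them without LPS replicate 2 at ZT1 (-0.17, adjusted p = 0.0423, range over the alternatives 0.0329 to 0.253).

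*Hey2* (ENSMUSG00000019789, chr10:30832359-30842801, minus strand), a repressor gene of arterial fate, lay at 3.61 to 6.04 CPM over the 16 mice with overlap between all groups. Its difference was 0.21 at ZT1 (95% interval -0.07 to 0.48) and 0.05 at ZT13 (95% interval -0.29 to 0.39). *Hes1* (ENSMUSG00000022528, chr16:30064384-30067796, plus strand), a target used by many cell types, lay at 5.24 to 8.43 CPM. Its difference was 0.06 at ZT1 (95% interval -0.20 to 0.32) and 0.10 at ZT13 (95% interval -0.17 to 0.38). Neither gene was called.

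**Figure D2:**
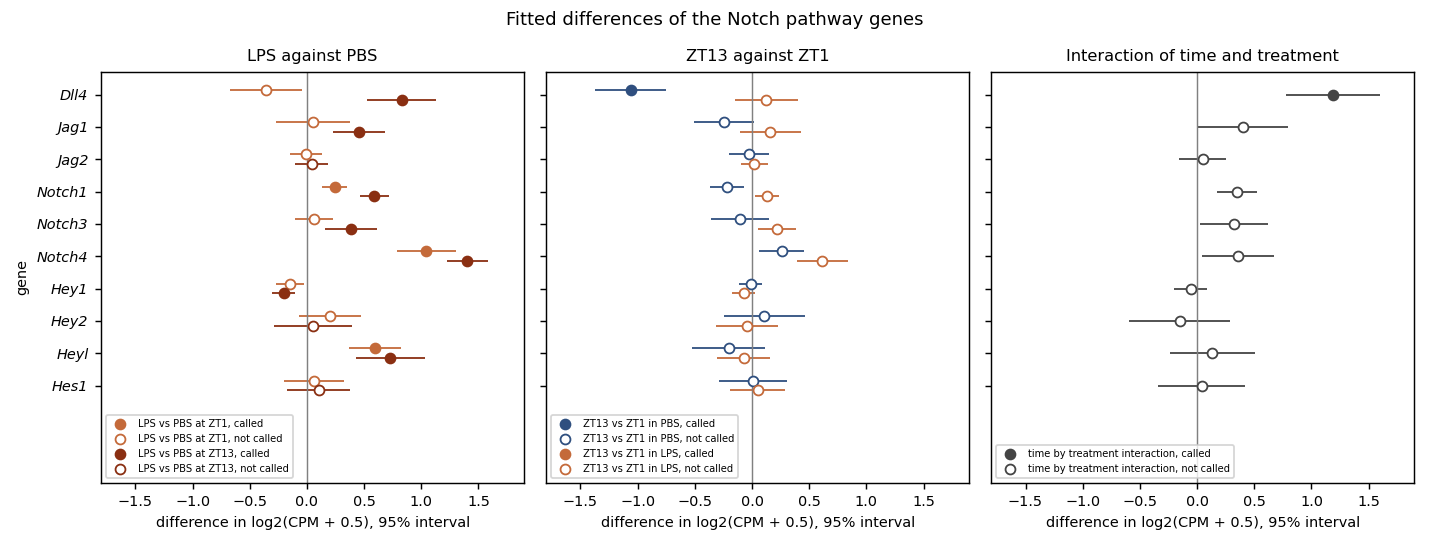
Fitted difference of each gene in log2(CPM + 0.5) with its 95% interval (x axis), for LPS against PBS at each time (left), ZT13 against ZT1 within each treatment (middle) and the interaction (right). Filled points were called at an adjusted p under 0.05 over all 18859 genes. *Dll4* is the single member called in the PBS-treated mice between times (-1.06) and in the interaction (1.19).

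The baseline between times was then compared in PBS-treated mice, which are the same mice as the controls above. *Dll4* was the 1 member called, beside 98 of 18859 genes in either direction (0.52%). It was lower at ZT13 than at ZT1 by 1.06 on the log2 scale, written as -1.06 (SE 0.14, 95% interval -1.38 to -0.75, adjusted p = 0.0163), with mean CPM at 0.404 of the ZT1 mean. All 3 mice at ZT13 were below all 3 at ZT1, and an exact permutation test of 3 against 3 gave p = 0.1, the smallest it can give. The call was lost without any one of ZT1 replicates 1, 2 and 3 and ZT13 replicates 1 and 2 (adjusted p = 0.0773, 0.0741, 0.0566, 0.0535 and 0.0775) and with all genes with any reads (0.0840). Over the alternatives its adjusted p ran from 0.00474 to 0.0840. The number of genes called also moved when 1 mouse was left out, to 25, 12 and 23 without ZT1 replicates 1, 2 and 3, and to 53 and 14 without ZT13 replicates 1 and 2.

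The other members were not called in the PBS-treated mice. *Notch1* stood at -0.22 (SE 0.06, adjusted p = 0.196), *Jag1* at -0.24 (SE 0.12, adjusted p = 0.412) and *Notch4* at 0.26 (SE 0.09, adjusted p = 0.245).

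Between LPS-treated mice at ZT13 and ZT1, 0 of 10 members were called by limma, beside 4 of 18859 genes (0.0212%). These mice are also part of the LPS comparisons. At an unadjusted p under 0.05 there were 3 members and 1998 genes. The 3 were *Notch4*, with a difference of 0.61 (SE 0.10, 95% interval 0.39 to 0.84, adjusted p = 0.0745), *Notch3* with 0.22 (SE 0.08, adjusted p = 0.307) and *Notch1* with 0.13 (SE 0.05, adjusted p = 0.340). *Notch4* averaged 16.3 ± 2.7 CPM (SD, n = 5) at ZT1 and 25.1 ± 2.8 CPM (n = 5) at ZT13. Its groups did not overlap, and a 2-sided exact permutation test of mean CPM gave p = 0.00794, the smallest that 5 against 5 allows. The same test without adjustment gave exact p = 0.0317 for *Notch3* and exact p = 0.0476 for *Notch1*, whose groups overlapped, and exact p of 0.111 to 0.873 for the other 7 members. With 1 mouse left out, the exact p of *Notch3* was 0.0635 without ZT1 LPS replicate 2, 3 or 5 or ZT13 LPS replicate 2, 4 or 5. The exact p of *Notch1* was 0.0952, 0.0794, 0.0635 and 0.0952 without ZT1 LPS replicates 2, 3, 4 and 5, and 0.0952 without ZT13 LPS replicate 2, 4 or 5.

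The *Notch4* difference between LPS-treated mice was called in 4 of 17 alternatives. These were the single fit of all 16 samples (adjusted p = 0.00969), sample quality weights (0.0209), and the fits without ZT1 LPS replicate 1 (0.0237) or 2 (0.0228), with a range of 0.00969 to 0.299 over all 17. The number of genes called in this comparison hung on the same mice, being 345 without ZT1 LPS replicate 1 and 20 without ZT1 LPS replicate 2. It was 0 without ZT1 LPS replicate 3 or ZT13 LPS replicate 3 or 4, 1 without ZT1 LPS replicate 5, and 2 without ZT13 LPS replicate 1, 2 or 5.

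The interaction asked whether the LPS difference itself differed between times, in a fit of all 16 mice that shares its samples with each comparison above. *Dll4* was the 1 member called, beside 30 of 18859 genes in either direction (0.159%). Its LPS difference was 1.19 higher at ZT13 than at ZT1 on the log2 scale (SE 0.19, 95% interval 0.78 to 1.60, adjusted p = 0.0127). It was called in 19 of 22 alternatives, and the difference was 1.12 to 1.28 with each mouse left out. The values behind it were -0.36 at ZT1 and 0.83 at ZT13, and the LPS-treated mice of the 2 times overlapped (2.31 to 3.54 and 2.52 to 3.56 CPM) while the PBS-treated mice did not. The call was lost without ZT1 PBS replicate 1 (1.12, adjusted p = 0.0594) or 2 (1.17, adjusted p = 0.0516), and with all genes with any reads (adjusted p = 0.0679, range over the alternatives 0.00246 to 0.0679).

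For *Notch1* the interaction was 0.35 (SE 0.08, adjusted p = 0.137), for *Jag1* 0.40 (SE 0.19, adjusted p = 0.529), for *Notch4* 0.36 (SE 0.15, adjusted p = 0.468) and for *Notch3* 0.32 (SE 0.14, adjusted p = 0.501). None of these was called, although their 95% intervals lay above 0. *Notch1* was called in 1 of 22 alternatives, with sample quality weights (adjusted p = 0.0495, range 0.0495 to 0.308). By unadjusted p, 5 members were under 0.05 in the limma fit beside 1745 genes. The remaining 5 members had differences of -0.15 to 0.13. *Notch4*, *Notch1*, *Heyl*, *Jag1*, *Notch3* and *Hey1*, called at 1 or both times for LPS, are not shown by the fit as reported to respond differently between times. The number of genes called was 104 when ZT1 LPS replicate 1 was left out and 11 when ZT13 PBS replicate 2 was. It was 13, 13 and 14 without ZT1 PBS replicates 1, 2 and 3, 18 without ZT1 LPS replicate 3 or 5, 17 without ZT13 LPS replicate 4 and 19 without ZT13 LPS replicate 5.

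The rest of the pathway was described by a list of 47 other genes, all of which passed the filter. At ZT1, 9 rose and 5 fell after LPS, with a median difference of 0.07, and at ZT13, 17 rose and 5 fell, with a median of 0.11, beside medians of 0.04 and 0.05 over all genes tested. Over all genes tested, 11.1% were higher and 5.15% lower at ZT1, and 19.2% and 9.4% at ZT13. With median-of-ratios scaling the split of the 47 was 6 up and 6 down at ZT1 and 12 up and 10 down at ZT13, so the excess of rises depended on the scaling. Without ZT1 PBS replicates 1, 2 and 3 the number called at ZT1 was 9, 8 and 8 in place of 14. The fringe genes *Lfng* and *Mfng*, whose glycosyltransferases add sugars to Notch receptors and so tune which ligand they answer to, were among the 3 largest rises at both times. *Lfng* rose by 0.97 at ZT1 (SE 0.07, adjusted p = 7.01e-06) and 0.71 at ZT13 (SE 0.08, adjusted p = 1.62e-05). *Mfng* rose by 0.54 (SE 0.14, adjusted p = 0.0216) and 1.08 (SE 0.15, adjusted p = 9.78e-05). *Rfng*, the remaining fringe gene of the list, was not called by limma at ZT1 (-0.09, adjusted p = 0.203) or ZT13 (0.005, adjusted p = 0.956). *Mfng* at ZT1 was called in 11 of 15 alternatives, and the call was lost among others without ZT1 PBS replicate 2 (adjusted p = 0.0608) or 3 (0.106) and with any reads as the filter (0.0603, range over the alternatives 0.0105 to 0.106).

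*Egfl7*, which encodes a protein secreted by endothelial cells that binds Notch receptors, rose by 0.42 at ZT1 (SE 0.09, adjusted p = 0.00990) and 1.11 at ZT13 (SE 0.08, adjusted p = 2.42e-07). Its call at ZT1 held in 13 of 15 alternatives and was lost without ZT1 PBS replicate 3 (adjusted p = 0.0584, range over the alternatives 0.00107 to 0.0729). *Egfl7* was the 1 gene of the 47 called in the interaction, at 0.69 (SE 0.13, adjusted p = 0.0407), a call that held in 9 of 22 alternatives with adjusted p from 0.0209 to 0.150. It was lost without ZT1 PBS replicate 1, 2 or 3 (adjusted p = 0.134, 0.132 and 0.0721), ZT13 PBS replicate 1 or 2 (0.137 and 0.150), ZT1 LPS replicate 4 or 5 (0.0685 and 0.0666) or ZT13 LPS replicate 2, 3, 4 or 5 (0.0829, 0.0657, 0.0841 and 0.0655).

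Genes of receptor processing were also among the rises. *Furin*, whose protease cleaves Notch during its passage to the surface, rose by 0.47 at ZT13 (SE 0.06, adjusted p = 4e-05) and by 0.25 at ZT1 (SE 0.05, adjusted p = 0.00472). *Adam17*, encoding a sheddase, rose by 0.58 at ZT13 (SE 0.07, adjusted p = 4.83e-05) and was not called at ZT1 (0.24, SE 0.10, adjusted p = 0.145), except without ZT1 LPS replicate 2 (0.29, adjusted p = 0.0482, range over the alternatives 0.0482 to 0.391). *Rbpj* rose by 0.29 at ZT1 (SE 0.06, adjusted p = 0.00671) and by 0.20 at ZT13 (SE 0.04, adjusted p = 0.00291). *Neurl1b*, encoding an E3 ligase for Notch ligands, fell by 0.36 at ZT1 (adjusted p = 0.00339) and fell by 0.51 at ZT13 (adjusted p = 1.27e-05), and its relative *Neurl1a* fell by 0.30 at ZT1 (adjusted p = 0.00696, over 0.05 in 1 of 15 alternatives at 0.0683) and fell by 0.31 at ZT13 (adjusted p = 0.000125). Between times, 0 of the 47 were called in LPS by limma and 1 in PBS. In LPS, 2 were called without ZT1 LPS replicate 1 and 1 without ZT1 LPS replicate 2. The gene called in PBS was *Numb*, which encodes an inhibitor of Notch, at -0.30 (SE 0.05, adjusted p = 0.0453), called in 4 of 13 alternatives (adjusted p from 0.0378 to 0.238). It lost its call without any 1 of ZT1 replicates 1, 2 and 3 (0.157, 0.173 and 0.139) and ZT13 replicates 1 and 2 (0.141 and 0.200).

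**Figure D3:**
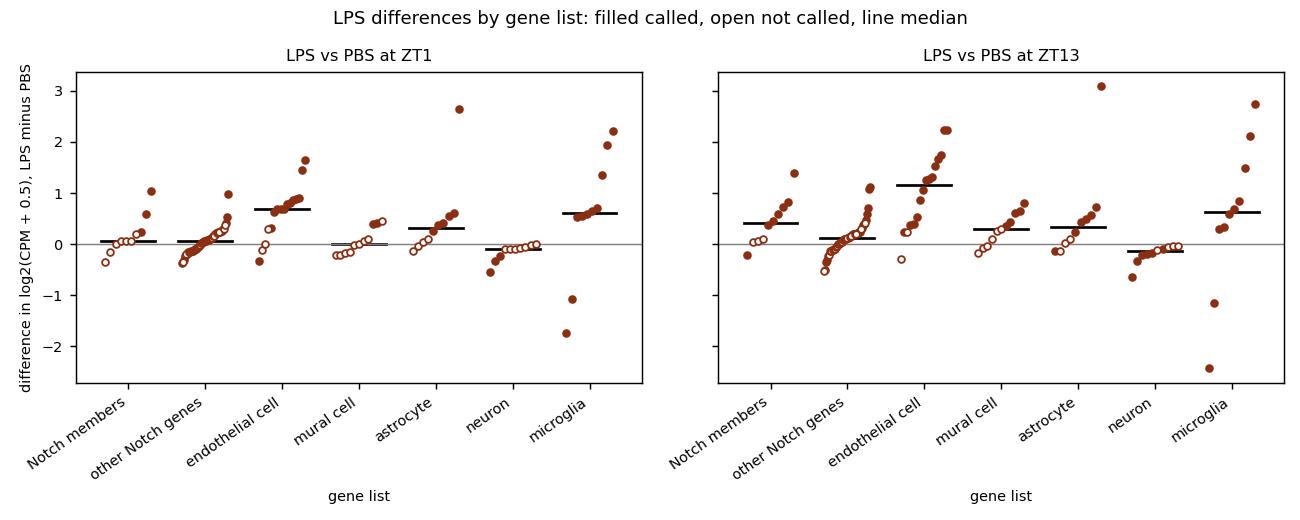
Difference of LPS minus PBS in log2(CPM + 0.5) (y axis) for every tested gene of 7 lists (x axis) at ZT1 (left) and ZT13 (right). Each point is a gene, filled where called, and the line is the median of the list. The median of the endothelial list was 0.69 at ZT1 and 1.16 at ZT13, and that of the Notch members 0.06 and 0.42.

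Markers of endothelial and mural cells were followed in the same comparisons. Which cells of the cortex carry the reads of each member was not tested. Over all genes tested, 11.1% were higher and 5.15% lower after LPS at ZT1, and 19.2% and 9.4% at ZT13. Of 16 endothelial genes, 12 rose and 1 fell at ZT1 with a median difference of 0.69, and 14 rose and 0 fell at ZT13 with a median of 1.16. Their summed level was 328, 327 and 328 CPM in PBS and 554, 439, 510, 569 and 455 CPM in LPS at ZT1. It was 285, 304 and 339 CPM in PBS and 554, 594, 578, 560 and 593 CPM in LPS at ZT13. No LPS-treated mouse overlapped a PBS-treated mouse, *Slc2a1*, the glucose transporter gene of the blood-brain barrier, was the most abundant gene, and none of the 16 was at 0. The largest endothelial rise at ZT1 was that of *Ly6c1* (1.65, SE 0.10, adjusted p = 1.54e-06), and the largest at ZT13 was that of *Cldn5* (2.24, SE 0.10, adjusted p = 2.77e-09), which encodes a tight junction protein.

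Set against these markers, the members differed from each other. The mean log2 level of the 16 endothelial genes was 0.64 higher in LPS at ZT1 and 1.04 higher at ZT13. Relative to that mean, *Notch4* was still higher after LPS, by 0.41 at ZT1 and 0.36 at ZT13. The SD of this relative level among LPS-treated mice was 0.36 at ZT1 and 0.16 at ZT13. Some single endothelial genes rose more than *Notch4*, among them *Ly6c1* at ZT1 and *Cldn5* at ZT13. Against the same mean, *Dll4* stood at -0.99 and -0.21 and *Notch1* at -0.39 and -0.45. *Heyl* stood at -0.04 and -0.31. In PBS-treated mice the endothelial mean differed by -0.20 between ZT13 and ZT1, and *Dll4* relative to it by -0.87. These are differences of means with no test of their own. In that comparison 1 endothelial gene was called higher at ZT13, *Slc2a1* (0.49), and 3 lower, *Cldn5* (-1.10), *Kdr* (-1.03) and *Flt1* (-0.49), and 6 of the 16 were called in the interaction. The part that the number of endothelial cells plays in the member differences was not tested.

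The mural list had smaller median differences than the endothelial list, a contrast that was not tested. Of 12 genes 11 passed the filter, of which 2 rose at ZT1 and 5 at ZT13 and none fell, with medians of 0.01 and 0.30. Their summed level was 203, 227 and 208 CPM in PBS and 224, 175, 211, 223 and 213 CPM in LPS at ZT1. It was 195, 188 and 205 CPM in PBS and 210, 214, 202, 213 and 234 CPM in LPS at ZT13. The groups overlapped at both times, *Rgs5* was the most abundant gene, and none was at 0, although *Cnn1* averaged under 1 CPM. The largest called rises were those of *Kcnj8* at ZT1 (0.42, SE 0.11, adjusted p = 0.0240) and *Anpep* at ZT13 (0.80, SE 0.13, adjusted p = 0.000250). Relative to the mean log2 level of the 12 mural genes, *Notch3* stood at 0.02 at ZT1 and 0.12 at ZT13, and *Heyl* at 0.55 and 0.47.

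Markers of other cell types of cortex were compared between treatments as well. Over all genes tested, 11.1% were higher and 5.15% lower at ZT1, and 19.2% and 9.4% at ZT13. Of 10 astrocyte genes, 6 rose at ZT1, and 6 rose and 1 fell at ZT13, and of 10 microglial genes, 8 rose and 2 fell at each time. The summed level of the astrocyte genes was 5441 to 5631 CPM in PBS and 5962 to 6546 CPM in LPS at ZT1, and 5522 to 5919 CPM and 6323 to 6854 CPM at ZT13. That of the microglial genes was 231 to 256 CPM and 312 to 511 CPM at ZT1, and 232 to 246 CPM and 439 to 482 CPM at ZT13. *Slc1a2* and *Csf1r* were the most abundant genes of these lists. Of 10 neuronal genes, 3 fell at ZT1 and 6 at ZT13 and none rose, led in abundance by *Syt1* and summing to 5046 to 5201 CPM and 4638 to 4944 CPM at ZT1, and 5144 to 5405 CPM and 4574 to 4808 CPM at ZT13. Of 10 oligodendrocyte genes, led by *Mbp*, 2 rose and 2 fell at ZT1, and 2 rose and 5 fell at ZT13. The 2 rises at ZT13 were near the share over all genes tested. At ZT1 the oligodendrocyte sums were 2634 to 3036 CPM in PBS and 2482 to 2940 CPM in LPS, and these overlapped. At ZT13 they were 2991 to 3240 CPM in PBS and 2585 to 2763 CPM in LPS.

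Of 10 neutrophil genes, 5 passed the filter, of which 4 rose at ZT1 and 5 at ZT13. None of the 5 exceeded 0.547 CPM in a PBS-treated mouse, so they passed the filter by their levels in LPS-treated mice, and the filter itself favoured a count of rises. The summed level of all 10 was 1.05 to 1.68 CPM in PBS and 9.56 to 46.6 CPM in LPS at ZT1, and 0.759 to 1.25 CPM and 32.6 to 86.1 CPM at ZT13, with *S100a9* as the most abundant gene and *Ly6g*, *Ngp*, *Camp*, *Ltf*, *Mpo* and *Elane* averaging under 1 CPM. Of 5 erythrocyte genes, led by *Alas2* and with *Hbb-bt* under 1 CPM, 0 were called by limma in either comparison, and their sum ran from 6.16 to 35.8 CPM over the 16 mice. Of the 7 choroid plexus and ependyma genes, 6 passed the filter, with 0 called at ZT1 and 1 higher at ZT13. No gene of any list was at 0 in all 16 libraries. Between LPS-treated mice 0 genes of every marker list were called by limma, and outside the endothelial list the same held between PBS-treated mice and in the interaction. The part of these cell types in the member differences was not tested.

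Among the 18859 genes tested, those nearest to a member in pattern were found by the root mean square distance of log2(CPM + 0.5) over the 16 mice after subtracting the mean of each gene. The nearest to *Notch4* were *Matn1* (distance 0.16), *Tead4* (0.17) and *B4galt1* (0.20), against a spread of *Notch4* about its own mean of 0.66. *Matn1* and *Tead4* stayed under 0.5 CPM in every PBS-treated mouse and passed the filter by their levels in LPS-treated mice. Their ratios of mean CPM were 4.57 and 2.80 at ZT1 and 5.29 and 4.89 at ZT13, against 2.15 and 2.74 for *Notch4*. The added 0.5 understates the change of such low genes, so their nearness does not mean equal ratios. *Notch1* was nearest to *Klf3* (0.07), *Elovl1* (0.08) and *Arhgap31* (0.09), with a spread of 0.23. For *Dll4* the distances were larger, 0.23 to *Gm45534*, 0.24 to *Slc6a13* and 0.25 to *Gm10385*, with a spread of 0.38. *Hey1* lay closest of all the members to another gene, at 0.02 from *Dlg4*, which encodes the postsynaptic scaffold PSD-95, and 0.04 from both *Ptprn* and *Prkar1b*, with a spread of 0.10.

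The remaining members had neighbours at distances of 0.07 to 0.16. These were *Itga7*, *Ddr1* and *Miat* for *Notch3*, *Rhoh*, *Cyp20a1* and *Ctsw* for *Jag1*, *Zfp653*, *Aldh2* and *Uhrf1bp1* for *Jag2*, *Nr2f2*, *Zfp383* and *Armc2* for *Hey2*, *Gm26532*, *Gm45869* and *Sox13* for *Heyl*, and *Lysmd1*, *Ano10* and *Aurkaip1* for *Hes1*. For *Jag2*, *Hey2* and *Hes1* the spread about the mean was 0.09, 0.20 and 0.16, little above these distances, so that a near neighbour there is mostly another gene with little change.

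Several members share ground with other annotated genes, and strand use in counting is not given in the sources used here, so reads of overlapping genes cannot be told apart. *Gm14207* runs opposite to the start of *Dll4* and read 0 to 0.269 CPM, under the level of *Dll4* in every group. *Gm17276*, opposite to *Notch3*, read 1.41 to 3.94 CPM, *0610009E02Rik*, opposite to *Notch1*, read 0.525 to 1.44 CPM, and *Gm20462*, opposite to *Notch4*, read 0 to 0.0859 CPM. *Gm13568*, opposite to *Notch1*, reached 0.0667 CPM, and the microRNA genes *Mir6941* within *Jag2* and *Mir6996* within *Notch1* were at 0.

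RefSeq promoter sequence of GRCm38.p6 was at hand for 7 of the 10 members, *Dll4*, *Notch1*, *Notch4*, *Notch3*, *Jag1*, *Jag2* and *Hey2*. Those of *Dll4* and *Notch4* are shown because these are the members with the largest rises after LPS at ZT13, and that of *Hey2* because it holds the letters of the RBPJ core. The 250 bases before the start of each gene, or as many as the table held, were searched on both strands for 4 motifs, and matches are in capitals. The core bound by RBPJ was TGGGAA, present on either strand in 21.6% of 32851 promoter windows of 250 bases. The E-box of the circadian clock factors was CACGTG, present in 6.02%. The core bound by ETS factors was AGGAAG, present in 29.5%. The site of AP-1 was TGACTCA, present in 4.46%. On the opposite strand these read TTCCCA for RBPJ, CTTCCT for ETS factors and TGAGTCA for AP-1, while the E-box reads the same.
Dll4, chr2:119325534-119325783, plus strand: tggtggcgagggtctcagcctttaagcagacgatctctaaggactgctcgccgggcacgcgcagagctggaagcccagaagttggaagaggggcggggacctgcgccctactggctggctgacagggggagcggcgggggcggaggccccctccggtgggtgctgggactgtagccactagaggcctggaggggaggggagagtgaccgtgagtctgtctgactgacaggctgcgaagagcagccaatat
Notch4, chr17:34564045-34564267, plus strand: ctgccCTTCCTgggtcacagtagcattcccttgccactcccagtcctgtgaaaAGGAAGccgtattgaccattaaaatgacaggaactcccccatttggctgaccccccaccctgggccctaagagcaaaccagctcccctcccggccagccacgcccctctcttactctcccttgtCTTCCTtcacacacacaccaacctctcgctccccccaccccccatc
Hey2, chr10:30842802-30843033, minus strand: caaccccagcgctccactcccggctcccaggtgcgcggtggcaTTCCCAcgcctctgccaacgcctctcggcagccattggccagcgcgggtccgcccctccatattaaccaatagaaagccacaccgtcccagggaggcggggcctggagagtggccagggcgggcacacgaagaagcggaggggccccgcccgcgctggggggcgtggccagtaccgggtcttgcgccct
The *Notch4* sequence held the ETS letters at 3 places, the *Hey2* sequence held the RBPJ letters once, at chr10:30842985-30842990, and none of the 4 motifs was found in the *Dll4* sequence. The other 4 promoters held none of these letters in their windows. A match is a description of the sequence and does not show that a factor binds there.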

How the data were processed

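Cortex RNA of 16 mice was sequenced from libraries of ribosomal RNA-depleted total RNA. The authors deposited CPM per gene, each library summing to 1000000, and the submitters' processing notes name GRCm38, bcl2fastq and DRAGEN 4.0.3-8. Of 55774 lines, 287 repeated a gene with identical values and were removed. The lowest CPM steps gave the depth per library, but only 80.9% to 82.5% of values up to 20 reads were whole multiples of the step (tolerance 0.01 reads), so no count model was used.

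A gene was tested if 3 or more of the 16 libraries reached 1 CPM for it. Tests were made on log2(CPM + 0.5) with limma 3.58.1 in R 4.3.3 (intensity trend, 2-sided, Benjamini-Hochberg over all genes tested, called at an adjusted p under 0.05). Each LPS, PBS or TOD comparison used its 2 groups, and the interaction used all 16 libraries. Single members were tested between times by exact permutation in scipy 1.17.1. The fit was checked on simulated data. Exon length and coordinates came from GENCODE M21. The members and lists were chosen with earlier results of these data known. Text names all members, up to 6 pathway genes per comparison with the largest called differences, and the 3 nearest genes to each member. *Rfng* is named as the remaining fringe gene, after its values were seen. From marker lists it names the most abundant gene, those at 0 and the largest called endothelial and mural changes. *Gfap* and *Lcn2* served as label checks. The motifs, the promoters shown and the endothelial genes named between PBS-treated mice were chosen after their values were seen. Alternatives were pseudocounts of 0.1 and 1, all genes with any reads, median-of-ratios factors, a single fit, sample quality weights, the replicate number as a block, the treatment field, and each mouse left out. Treatment came from the sample titles. The replicates in the figures and text carry the numbers of the titles. The library name of ZT13 PBS replicate 1 ends in c2 where all others end in c1, and its meaning is not given in the sources used here. Tables were handled with numpy 2.4.6 and pandas 2.3.3 under Python 3.11.15, and figures drawn with matplotlib 3.10.9. Library depth limits *Dll4* most, and with 3 PBS-treated mice per time a small difference can go uncalled.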

Additional observations from a re-analysis of the deposited data

Results flagged for a closer look

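*Dll4* was called for a different response to LPS between times. The interaction of TOD and treatment in the limma fit was 1.19 on the log2 scale (adjusted p = 0.0127), with *Dll4* lower in the PBS-treated mice at ZT13 than in any other mouse. It was called in 19 of 22 alternatives and in 14 of the 16 fits that left out a mouse, in which the difference was 1.12 to 1.28. The adjusted p was 0.0594 and 0.0516 without ZT1 PBS replicates 1 and 2, and 0.0679 with all genes with any reads. Of 16 endothelial marker genes 6 were called in the same interaction, and between PBS-treated mice 3 were called lower at ZT13 (*Cldn5*, *Kdr* and *Flt1*) and 1 higher (*Slc2a1*), with 5 of the 16 differences positive. Whether any of these share a cause with *Dll4* was not tested.

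In the LPS-treated mice at ZT1, replicate 2 stood apart for *Dll4* at 3.54 CPM against 2.31 to 2.58 CPM in the other 4. The gap to its nearest neighbour was 0.783 of the range of the group, above the critical value of Dixon's test for 5 samples. This was 1 of 20 groups of 5 tested over the 10 members, and chance flags about 1 in 20. In summed markers the same library was lowest or highest of its group in 6 of 9 lists, a place that 2 of the 5 mice hold in each list. It had 175 CPM against 211 to 224 CPM for mural genes, 312 against 434 to 511 CPM for microglial genes, 439 against 455 to 569 CPM for endothelial genes, 5962 against 6152 to 6546 CPM for astrocyte genes, 21.9 against 27.2 to 848 CPM for choroid plexus and ependyma genes, and 35.8 against 6.16 to 23.9 CPM for erythrocyte genes. It lay within the other mice for neuronal (4828 CPM), oligodendrocyte (2730 CPM) and neutrophil genes (10.7 CPM). The cause was not tested.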

How the results depend on the processing

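For the 10 members in all 5 comparisons and the other Notch genes in the comparisons where the text gives them, 1008 of 1095 values over the alternatives kept their direction and their side of the threshold, 42 lost the call, 11 gained it and 34 changed sign. The treatment field, which was run for counts only, and *Rfng* are in none of these. The rises of *Notch4* and *Heyl* at both times and of *Dll4*, *Notch1* and *Jag1* at ZT13, and the fall of *Hey1* at ZT13, were called in 15 of 15 of them. With all genes with any reads tested (38565 genes), which changes both the adjustment and the fit of the spread, 1605 genes and 7 other Notch genes were called for LPS at ZT1 (3061 and 14 as reported), 1 gene between LPS-treated mice (4), 0 members, 65 genes and 0 other Notch genes between PBS-treated mice (1, 98 and 1), and 0, 12 and 0 in the interaction (1, 30 and 1). With sample quality weights, 5 members were called at ZT1 (3) beside 4097 genes (3061), 1 member, 225 genes and 3 other Notch genes between LPS-treated mice (0, 4 and 0), 2 other Notch genes between PBS-treated mice (1), and 2 members (*Dll4* and *Notch1*) and 124 genes in the interaction. The single fit of all 16 samples called 4 members (3) and 4048 genes (3061) at ZT1. It called 1 member, 122 genes and 1 other Notch gene between LPS-treated mice, and 43 genes between PBS-treated mice. With a pseudocount of 0.1, 0 other Notch genes were called between PBS-treated mice. By the treatment field, the PBS mice are 3 mice titled LPS at each time, and the LPS mice are those titled PBS with 2 titled LPS. It gave 0 members, genes and other Notch genes for LPS at both times and in the interaction, 0 genes between LPS-treated mice, and 70 genes, 0 other Notch genes and 1 member (higher at ZT13) between its PBS mice, which by title compares LPS-treated mice and does not bear on the PBS baseline. Apart from the field, the cause was not tested.

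Whether the numbers of the replicates pair the mice is not given in the sources used here. The correlation of same-numbered deviations was -0.20 to 0.33 over 20 pairs. These values cannot decide it, since a low correlation does not exclude that same-numbered mice were handled together. With the replicate block, 3 members and 2637 genes were called at ZT1, 6 and 4680 at ZT13 (*Notch3* at an adjusted p of 0.0517, and *Mfng* at ZT1 at 0.0506), 0 and 3 between LPS-treated mice, 57 genes and 0 other Notch genes between PBS-treated mice, and 25 genes and 0 other Notch genes in the interaction. *Jag2* at ZT1 changed sign to 0.028 and *Hey2* at ZT13 to -0.13 under the replicate block. With median-of-ratios factors *Jag2* at ZT13 changed to -0.016 and *Hey2* at ZT13 to -0.00015, and the exact permutation p of *Notch1* became 0.0635, an alternative chosen after seeing the data. None of these signs belonged to a called gene, and the cause was not tested.

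With each mouse left out in turn, the members called were 2 to 5 at ZT1, 6 to 7 at ZT13, and 0 to 1 between LPS-treated mice, between PBS-treated mice and in the interaction. The genes called were 1763 to 3760, 4330 to 5544, 0 to 345, 12 to 87 and 11 to 104, and the other Notch genes 8 to 18, 17 to 24, 0 to 2, 0 to 1 and 0 to 1, in the same order. Differences that changed sign were, for LPS against PBS at ZT1, *Notch3* at -0.0019 to 0.13, *Jag1* at -0.018 to 0.16, *Jag2* at -0.068 to 0.041 and *Hes1* at -0.041 to 0.20, and at ZT13, *Jag2* at -0.0040 to 0.13 and *Hey2* at -0.10 to 0.14. Between LPS-treated mice they were *Jag2* at -0.0055 to 0.056, *Hey2* at -0.12 to 0.021, *Heyl* at -0.13 to 0.00070 and *Hes1* at -0.027 to 0.13. Between PBS-treated mice they were *Notch3* at -0.21 to 0.026, *Jag2* at -0.11 to 0.021, *Hey1* at -0.035 to 0.0020 and *Hes1* at -0.092 to 0.15, and in the interaction *Jag2* at -0.000094 to 0.13 and *Hes1* at -0.097 to 0.14. None of these was called. The exact permutation p was 0.0159 for *Notch4* in every case, which groups without overlap must give at 4 against 5 and which therefore says nothing of stability, 0.0159 to 0.0635 for *Notch3* and 0.0317 to 0.0952 for *Notch1*.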
